A study of Homo sapiens with 3 samples.

Results

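Eph receptors are the largest family of receptor tyrosine kinases, and ephrins are the ligands that neighbouring cells present to them on the cell surface. The genes described here are 10 members of this system: the A-type receptors EPHA1, EPHA2 and EPHA4, the B-type receptors EPHB2, EPHB3 and EPHB4, the A-type ligands EFNA1 and EFNA4, and the B-type ligands EFNB1 and EFNB2. They were taken by name, with every probe that the array annotation assigns to them. Of the 10 members, 9 had a named probe, among 18852 named genes in all. No probe is named for EPHB2 in the annotation used here, and it was not analysed. The 9 members had 11 probes, of which 11 exceeded background on at least 1 of the 3 arrays and 9 on all 3, and all 9 genes were among the 11914 genes tested.

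Binding between an Eph receptor and an ephrin takes place at cell-cell contacts and sends signals into both cells, a forward signal through the receptor's kinase and a reverse signal through the ephrin. A-type ephrins are tied to the membrane by a lipid anchor, and B-type ephrins cross it and have a short cytoplasmic tail. In epithelia these contacts are known for cell sorting, boundary formation and control of adhesion and movement, and the receptors act through small GTPases and through kinases of the SRC family.

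HCC827 is a human lung adenocarcinoma cell line that grows under the control of a mutant EGFR. The parental line, labelled as sensitive to BIBW2992 (the EGFR family inhibitor afatinib), was measured on 1 array, and each of 2 resistant sublines, HCC827-BR1 and HCC827-BR2 (clone 1 and clone 2 here), on 1 array as well. Both sublines came from HCC827 cells that had been kept for 3 to 4 months in BIBW2992 raised stepwise to 2 µM, and each was set up from an individual clone. The labels do not state whether the cells for RNA were grown with drug, and dasatinib, the inhibitor in the series title, is on no array's label. Selection, cloning and time in culture cannot be told apart in any difference from parental cells.

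Signal is given below as the deposited intensity, which is linear and includes background. The level above which a probe was taken to exceed background was a signal of 69.3 on the parental array, 66.1 for clone 1 and 70.7 for clone 2, and 33.8% to 35.1% of the 48803 probes passed it. Of 7 genes listed as markers of this epithelial line, 6 exceeded background in parental cells and 5 in each clone. KRT18 was below background on every array and NKX2-1 in both clones. The summed signal of the 7 genes was 58946 in the parental line, 14485 for clone 1 and 4035 for clone 2. EGFR, a target of the drug, is among the 7 and made up 11121, 5979 and 502 of these sums. Of 4 leukocyte markers with a named probe, 2 exceeded background on some array (CD14 and LYZ), as did 1 of 3 endothelial (PECAM1) and 0 of 5 fibroblast markers.

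Among the receptors, EPHA1 was lower in both resistant clones, and it alone passed the test over all genes given below. EPHA4 and EPHA2 were higher in both clones, and EPHB4 and EPHB3 lower in both, without passing it. EPHA1, the founding member of the receptor family, is typical of epithelial cells. Its signal was 371 in the parental line, 54.6 for clone 1 and 48.2 for clone 2. Parental cells were thus well above background, and both clones were below it. EPHA1 was at least 4.71-fold lower in clone 1 and at least 4.65-fold lower in clone 2. Each is a bound against the lowest signal that exceeded background on that clone's array, and the lowest over 6 ways of background correction and scaling; with the correction used elsewhere here (normexp, offset 16) the bounds were 7.68-fold and 7.52-fold. EPHA1 fell in limma's test over all genes, with a decrease of at least 4.68-fold in the mean of the clones over the same 6 ways (adjusted p = 0.00910 with offset 16, Benjamini-Hochberg). On the measured values, which for the clones are background signal, the log2 difference was -3.70 (SE 0.34). Since both clones were below background, the gene's own spread in this test is that of 2 dim signals. Limma combines it with the spread over all tested genes. EPHA1 was the only member called, 1 of 9 lower and 0 of 9 higher, beside 3.08% of all tested genes called lower, 2.67% called higher and 5.75% called in all. At an unadjusted p under 0.05 limma's counts were 3 lower (EPHA1, EPHB4 and EFNB1) and 1 higher (EPHA4), beside 20.5% of all tested genes in either direction. The summed marker signal above, which includes EGFR, moved the same way as EPHA1, and its part in the decrease was not tested. In a bulk array, fewer cells of a type and less RNA per cell cannot be told apart.

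EPHA4, a receptor that binds ligands of both the A and the B type, was below background in parental cells, with a signal of 56.9. It reached 83.6 in clone 1 and 159 in clone 2, both above background. Clone 2 was thus the higher of the clones, and clone 1 lay close to the level of background. Against the background bound of the parental array, and as the lowest over the same 6 ways, EPHA4 was at least 1.25-fold higher in clone 1 and 2.23-fold higher in clone 2. With offset 16 these bounds were 1.45-fold and 3.24-fold. Between the clones, with offset 16, the difference was 2.23-fold, with 1 array each and so no test. It was the only member at least 2-fold apart between the clones, beside 3.78% of all tested genes, 1.81% higher and 1.96% lower in clone 2, and it was below 2-fold with offset 50, without background correction and with the authors' processed values. The mean log2 difference from parental cells on measured values was 1.59 (SE 0.51) and did not pass the limma test (adjusted p = 0.177). The clones' own differences were 1.01 and 2.17, so that the value rests largely on clone 2.

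**Figure D1:**
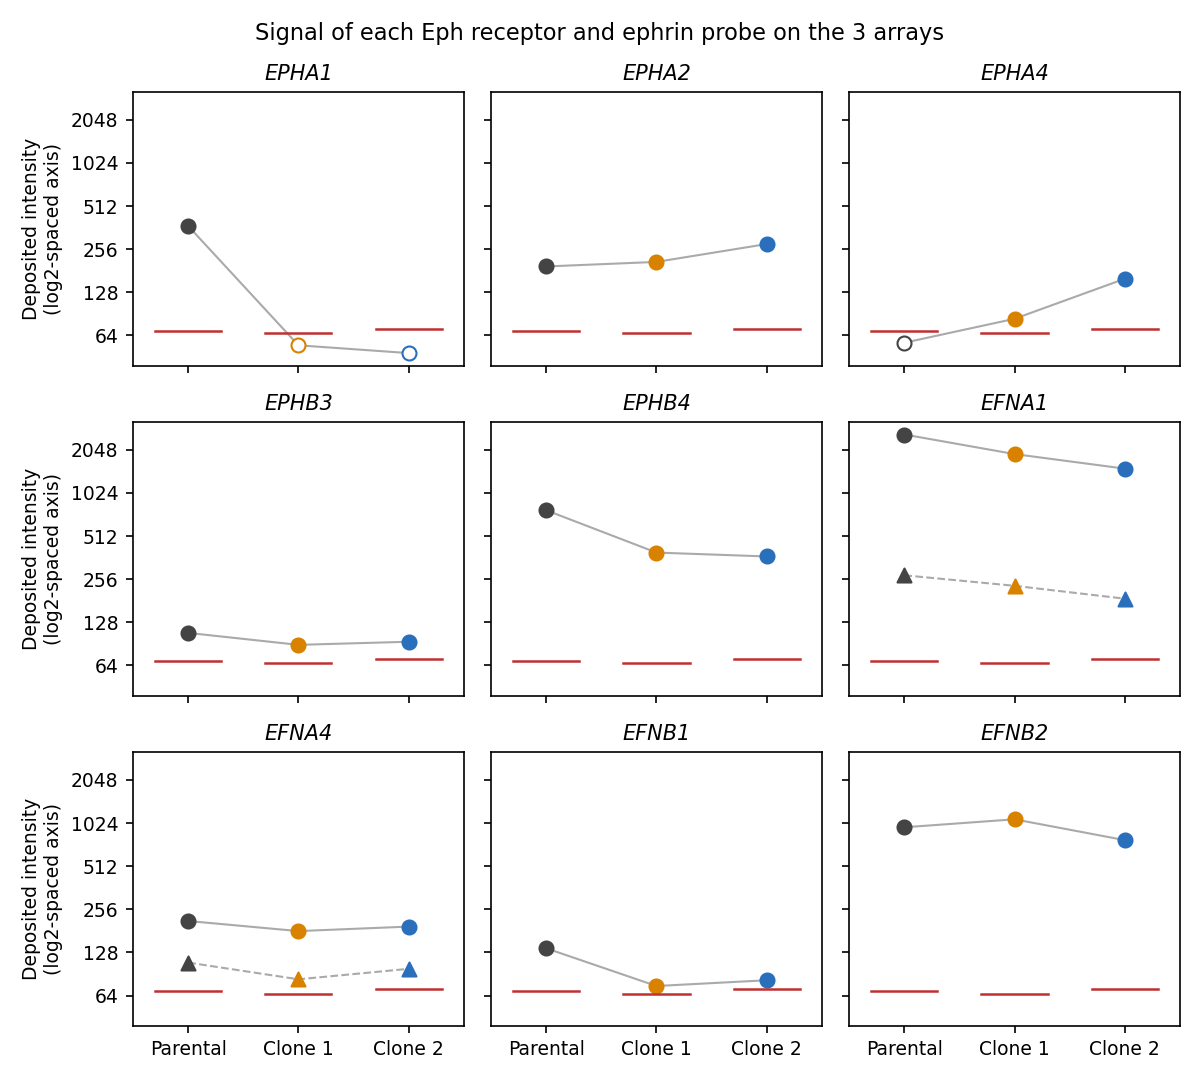
Deposited intensity on a log2-spaced axis for each member on the arrays of parental cells, clone 1 and clone 2, 1 array each. Circles are the probe used for the gene, triangles a second probe, filled symbols exceed background, open symbols do not, and red bars mark the background threshold of each array. EPHA1 drops from 371 to below the bars in both clones, and EPHA4 is below the bar in parental cells and at 83.6 and 159 in the clones; levels of different probes are not comparable.

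Sequence just upstream of the start of EPHA1 and EPHA4 is shown because these members differed most on measured values, in opposite directions. For EPHA4 this rank rests on the dim parental signal. With offset 50 its bound in the mean of the clones was 0.74 in log2, against a difference of -0.89 for EPHB4. It is the 250 bases before each start in RefSeq on GRCh38.p14, all on the minus strand, and capitals mark the letters CACCTG or, on the other strand, CAGGTG, the core of the E-box bound by ZEB and SNAI factors. The table holds 1 start for EPHA1 (chr7:143408857-143409106) and 2 for EPHA4 (chr2:221574203-221574452 and chr2:221572305-221572554).
EPHA1: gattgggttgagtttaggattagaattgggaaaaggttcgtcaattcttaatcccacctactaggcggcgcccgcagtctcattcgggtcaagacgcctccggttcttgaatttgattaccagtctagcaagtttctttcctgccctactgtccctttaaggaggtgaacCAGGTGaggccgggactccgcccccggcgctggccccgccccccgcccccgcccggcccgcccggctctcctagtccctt
EPHA4 start 1: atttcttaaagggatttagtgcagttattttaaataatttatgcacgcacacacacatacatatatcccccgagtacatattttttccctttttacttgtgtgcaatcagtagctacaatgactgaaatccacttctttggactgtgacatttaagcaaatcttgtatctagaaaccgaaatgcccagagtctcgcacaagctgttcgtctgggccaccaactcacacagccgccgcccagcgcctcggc
EPHA4 start 2: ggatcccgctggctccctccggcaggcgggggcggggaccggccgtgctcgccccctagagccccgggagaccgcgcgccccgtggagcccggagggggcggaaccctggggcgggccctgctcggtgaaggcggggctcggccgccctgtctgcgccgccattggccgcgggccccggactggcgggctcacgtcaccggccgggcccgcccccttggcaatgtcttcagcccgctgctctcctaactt

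EPHA1 held 1 match, which begins 80 bases before the start, and EPHA4 held 0 in either window. Among all 35116 windows of this length, 17.5% held at least 1 match, as did those of 3 of the 10 members, EPHA1, EPHB2 and EFNB2. EPHA1 had 59.2% G and C and 17 CpG dinucleotides. The windows of EPHA4 differed from each other, with 43.2% and 9 CpG at the first start and 78.0% and 30 CpG at the second, against medians of 58.0% and 11 over all windows. Other letters searched on both strands were GGGCGG of SP1 (in 42.6% of all windows), TGANTCA of AP-1 (6.57%) and GGAATG of TEAD (11.9%). GGGCGG had 5 matches in EPHA1, and 1 and 5 in the windows of EPHA4, while TGANTCA and GGAATG had 0 in all 3. These are descriptions of the letters, and no binding was measured.

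None of the tested genes next to EPHA1 was called. The 4 tested genes nearest to EPHA1 on chromosome 7 had mean log2 differences from -0.39 to 0.20, with adjusted p from 0.629 to 0.827 by limma. The nearest before it was ZYX, which encodes the focal adhesion protein zyxin, at 0.20. On chromosome 2, the tested neighbours STK11IP, SLC4A3 and CCDC140 of EPHA4 had mean log2 differences of -0.23, 0.41 and 0.15 and were not called. The second tested gene after EPHA4 is SGPP2, a sphingosine phosphate phosphatase, which fell (adjusted p = 0.00242 by limma) while EPHA4 was higher. Its signal was 1632 in parental cells and below background in both clones, so that the decrease was at least 20.1-fold, the lowest over the 6 ways. As for EPHA1, the gene's own spread in the test is that of dim signals. Another SGPP2 probe was at 75.5 in parental cells, close to background, and below it in both clones.

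EPHA2, a receptor of the A type that is common on carcinoma cells and whose kinase dasatinib also inhibits, was not called. It was higher by less than 2-fold in both clones. Its signal was 194 in the parental line, 209 for clone 1 and 278 for clone 2, above background on every array and highest in clone 2. The log2 differences were 0.27 in clone 1 and 0.68 in clone 2, with a mean of 0.47 (SE 0.30, limma adjusted p = 0.452).

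Neither B-type receptor with a probe was called. EPHB4, the receptor that pairs with ephrin-B2 in vessel formation, had a signal of 775 in the parental line, 393 for clone 1 and 369 for clone 2. Both clones were thus at about the same level, below parental cells. EPHB4 was 1.85-fold lower in clone 1 and 2.01-fold lower in clone 2, a mean log2 difference of -0.95 (SE 0.26) that did not pass the limma test (adjusted p = 0.129, unadjusted p = 0.0146). EPHB3, a receptor known for positioning cells in the gut epithelium, had signals of 108, 89.2 and 93.7 in parental cells, clone 1 and clone 2. These lie within a narrow range not far above background, with a mean log2 difference of -0.20 (SE 0.26, adjusted p = 0.723).

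Of the 4 member ligands, EFNB1 had the largest mean difference. Ephrin-B1 is a transmembrane ligand whose tail binds PDZ-domain proteins. Its signal was 137 in the parental line, 74.6 for clone 1 and 81.8 for clone 2, so that the clones lay just above background. EFNB1 was 2.03-fold lower in clone 1 and 1.88-fold lower in clone 2, a mean log2 difference of -0.97 (SE 0.26) that was not called by limma (adjusted p = 0.123, unadjusted p = 0.0134). EFNB2, a ligand of EPHB4 and of other B-type receptors, gave a signal of 957 in the parental line, 1087 for clone 1 and 778 for clone 2. Parental cells lay between the clones, and the log2 differences of 0.36 and -0.18 had opposite signs. Their mean was 0.09 (SE 0.33, adjusted p = 0.915), and it turned to -0.012 with median scaling.

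EFNA1, a ligand of EPHA2 and other A-type receptors, read 2621 on the parental array, 1914 for clone 1 and 1515 for clone 2 with its brighter probe. On its other probe they were 273, 230 and 187. Both probes were highest in parental cells and lowest in clone 2, although neither moved by 2-fold. The brighter probe's log2 differences were -0.31 and -0.69, with a mean of -0.50 (SE 0.30, limma adjusted p = 0.417), and those of the other probe were -0.12 and -0.51. EFNA4, another A-type ligand, had signals of 212, 180 and 194 on its brighter probe, in the same order of arrays, and of 109, 83.1 and 98.3 on its other probe. Its mean log2 difference was -0.09 (SE 0.26, adjusted p = 0.892), smaller than its standard error. EFNA4 and EFNA1 are next to each other among the tested genes of chromosome 1.

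Over the 9 members, 6 were lower than parental cells in both clones, 2 were higher in both (EPHA2 and EPHA4) and EFNB2 was on either side. Over all 11914 genes tested, 4589 were lower in both and 4735 higher in both. The median log2 difference was -0.22 in clone 1 and -0.19 in clone 2, against 0.01 and 0.01 over all genes tested. By size, 2 members were at least 2-fold off in both clones in the same direction on measured values, EPHA1 lower and EPHA4 higher, beside 9.95% of all genes tested, of which 5.27% lower and 4.68% higher. For EPHA4 the bound in clone 1 was itself below 2-fold. At least 2-fold from parental cells were 14.3% of all genes in clone 1 and 14.9% in clone 2. EPHB4 was at least 2-fold lower in clone 2 only and EFNB1 in clone 1 only, and the remaining 5 members were below 2-fold in both. Both differences are taken from a single parental array and share its error.

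**Figure D2:**
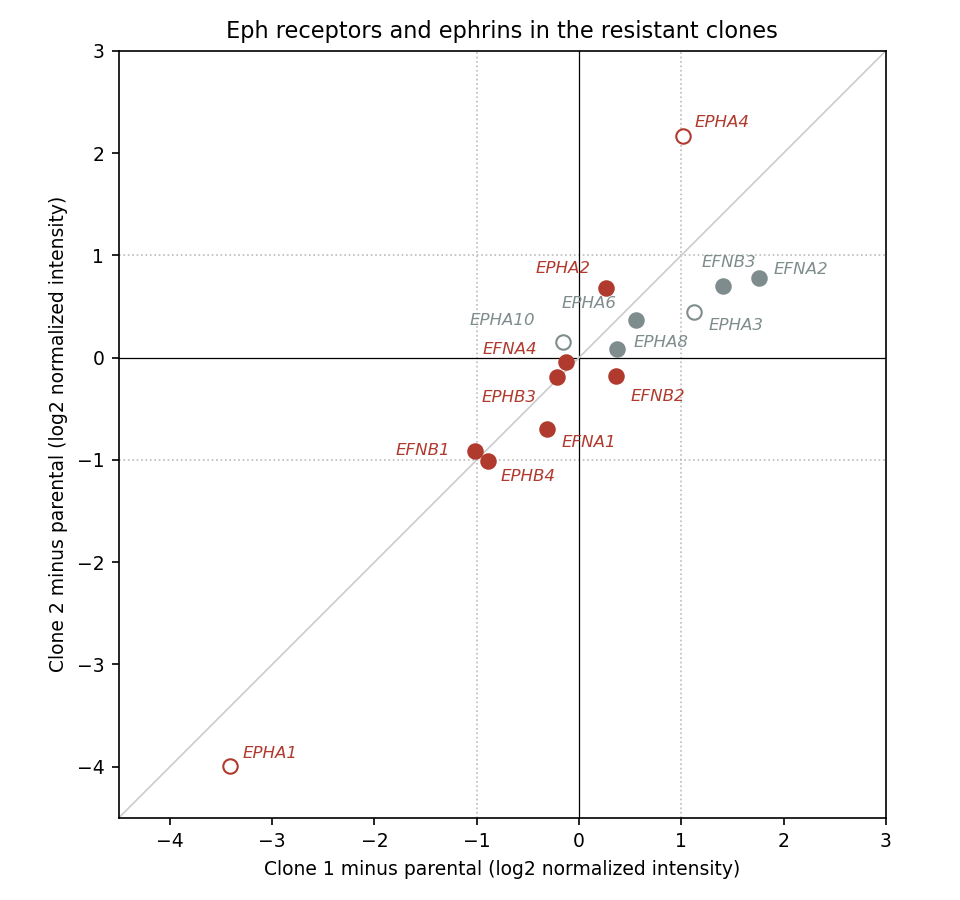
Log2 difference from parental cells in clone 1 (horizontal axis) and in clone 2 (vertical axis), 1 array each, for the members (red) and the other detected genes of the family (grey). Open circles have at least 1 array below background and dotted lines mark 2-fold; EPHA1 lies far below 0 in both clones at -3.41 and -3.99, and EPHA4 is the member farthest above 0, at 1.01 and 2.17.

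The other 12 genes of the family were all named on the array, and 6 of them exceeded background on at least 1 array. EPHA5, EPHA7, EPHB1, EPHB6, EFNA3 and EFNA5 did not exceed it on any. Of the 6, limma called 0, beside 5.75% of all genes tested, with 2 at an unadjusted p under 0.05, both higher, beside 20.5%. EFNB3, a transmembrane ligand known from the nervous system, gave a signal of 108 in the parental line, 220 for clone 1 and 149 for clone 2. It was 2.65-fold and 1.62-fold higher in clones 1 and 2, a mean log2 difference of 1.05 (SE 0.37, adjusted p = 0.208). EFNA2, an A-type ligand, had signals of 126, 330 and 185 on a probe annotated to a single expressed sequence tag, with a mean log2 difference of 1.27 (SE 0.46, adjusted p = 0.211). Its other probe, annotated to the RefSeq transcript, was below background on all 3 arrays, so the probes disagree. EPHA6 and EPHA8 stayed near background at signals of 76.4 to 93.6 and 76.4 to 85.3, and only 1 probe of each exceeded it. EPHA3 exceeded background in clone 1 alone, at 69.3, and EPHA10 in parental cells and clone 2, at 70.3 and 74.4.

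Genes that carry the signal from the receptor into the cell were compared from a list of 36 adaptors, exchange factors, GTPases and kinases, of which 30 were tested. Limma called 2 higher and 1 lower, beside 2.67% and 3.08% of all genes tested, and 8 had an unadjusted p under 0.05, 4 in each direction, beside 20.5%. The list's median log2 differences were 0.17 in clone 1 and -0.02 in clone 2, against 0.01 in both over all genes. VAV3, an exchange factor that activates Rac GTPases and is recruited by EphA2, gave a signal of 258 in the parental line, 2192 for clone 1 and 1693 for clone 2. Both clones stood far above parental cells, with a 9.01-fold rise (log2 3.17, SE 0.31, adjusted p = 0.0103). Another VAV3 probe differed by 2.38, and the remaining one was below background on all arrays. NGEF, or ephexin-1, an exchange factor for small GTPases that binds EphA4, had signals of 468, 109 and 77.2. It fell 6.38-fold (log2 -2.67, SE 0.40, adjusted p = 0.0286), and clone 2 was close to background. FYN, a SRC family kinase that acts below both receptors and ephrins, rose from a signal of 82.1 to 339 and 304 (log2 2.51, SE 0.27, adjusted p = 0.0125). Its other 3 probes, below background in parental cells, differed by 0.82 to 1.61, and with the mean of the probes the log2 difference was 1.62 (adjusted p = 0.0309).

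CHN1, the Rac-inactivating alpha-chimaerin that acts below EphA4, was below background in parental cells at 60.7 and had signals of 121 and 201 in clones 1 and 2. Its order over the arrays was that of EPHA4 and also of EPHA2, and how many of all genes share this order was not counted. CHN1 was at least 2.23-fold higher in the mean of the clones, the lowest over the 6 ways (3.21-fold with offset 16), without passing the test (limma adjusted p = 0.0656). Its other probe was below background on all 3 arrays. LYN was 2.23-fold lower (adjusted p = 0.0850). The brightest gene of the list under 2-fold was RAC1, the GTPase itself, at a mean log2 difference of -0.24 (adjusted p = 0.730).

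On the ephrin side, a list of 14 PDZ-domain partners, phosphatases and proteases had 10 genes tested. Limma called 0 of them, beside 5.75% of all genes tested, with 1 higher and 1 lower at an unadjusted p under 0.05, beside 20.5% in either direction, and the medians were -0.05 and 0.16. PTPN13, a phosphatase that binds B-type ephrins through a PDZ domain, gave a signal of 405 in the parental line, 771 for clone 1 and 840 for clone 2. The mean log2 difference was 1.17 (SE 0.26, adjusted p = 0.0808), and its second probe differed by 1.35. SDCBP, or syntenin, another PDZ partner of B-type ephrins and the brightest under 2-fold, differed by -0.02 (adjusted p = 0.978).

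**Figure D3:**
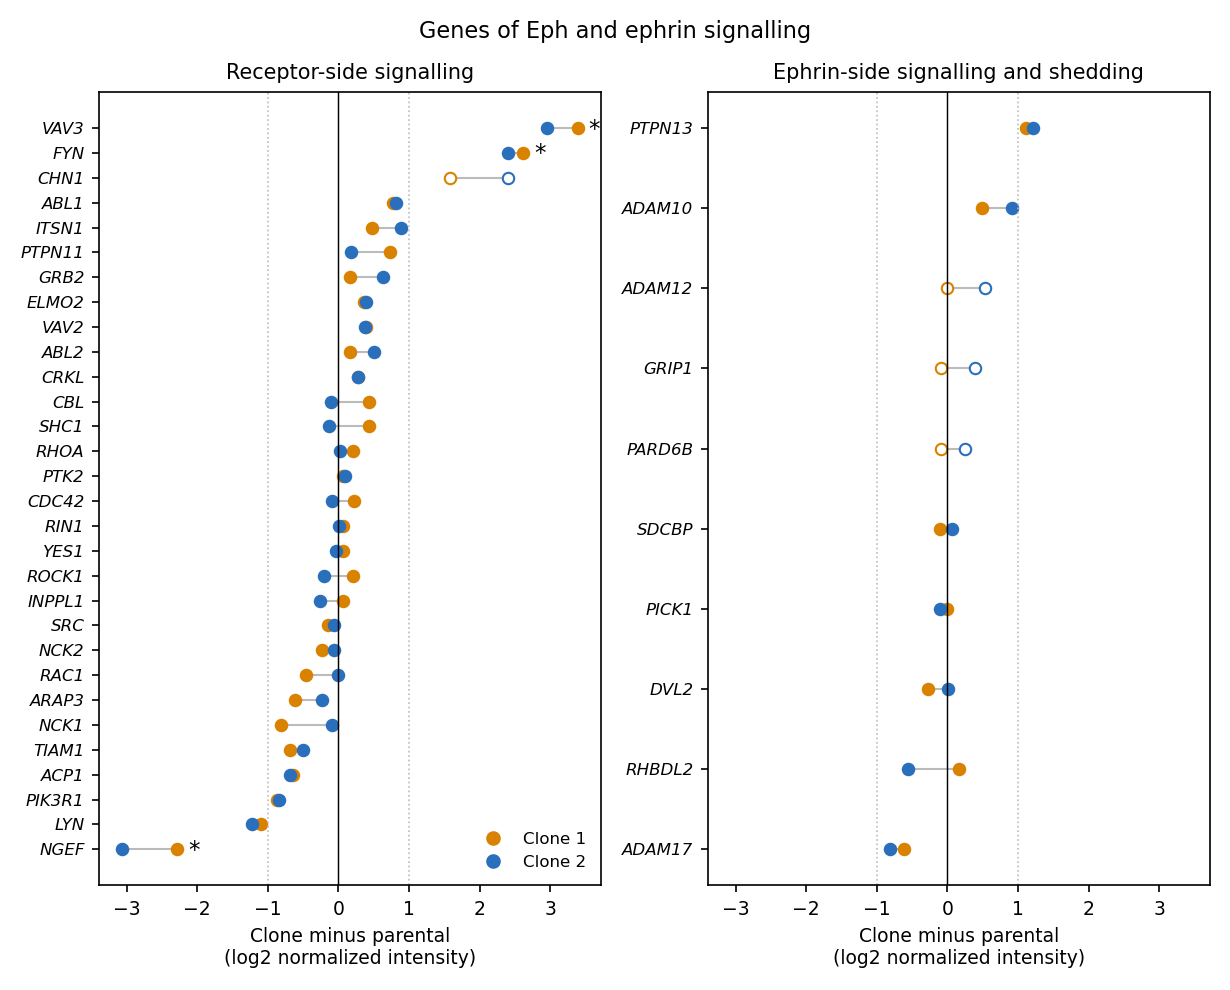
Log2 difference from parental cells in clone 1 (orange) and clone 2 (blue), 1 array each, for tested genes of receptor-side and ephrin-side signalling. Open circles have the parental or the clone array below background, asterisks mark a limma adjusted p under 0.05 and dotted lines mark 2-fold; VAV3 and FYN lie above 2-fold and NGEF below in both clones.

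The genes whose pattern was most like that of EPHA1, by Euclidean distance over the differences of the 2 clones from parental cells, were NFE2 (distance 0.07, adjusted p = 0.00758 by limma), RPS6KA2 (0.11) and TMEM156 (0.17). EPHA1 was below background in both clones, and NFE2 and RPS6KA2 in clone 2, so that these distances rest on background signal there and their order is not a measured one. NFE2 in clone 1, at a signal of 66.6, lay barely above that array's threshold of 66.1. The fall of RPS6KA2 rests on 1 probe, and its other probes were below background on all 3 arrays. TMEM156 exceeded background on all 3 arrays with its brighter probe, and its other probe did so in parental cells only. The likeness is over 3 arrays, and 628 genes were at least 2-fold lower in both clones.

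**Figure D4:**
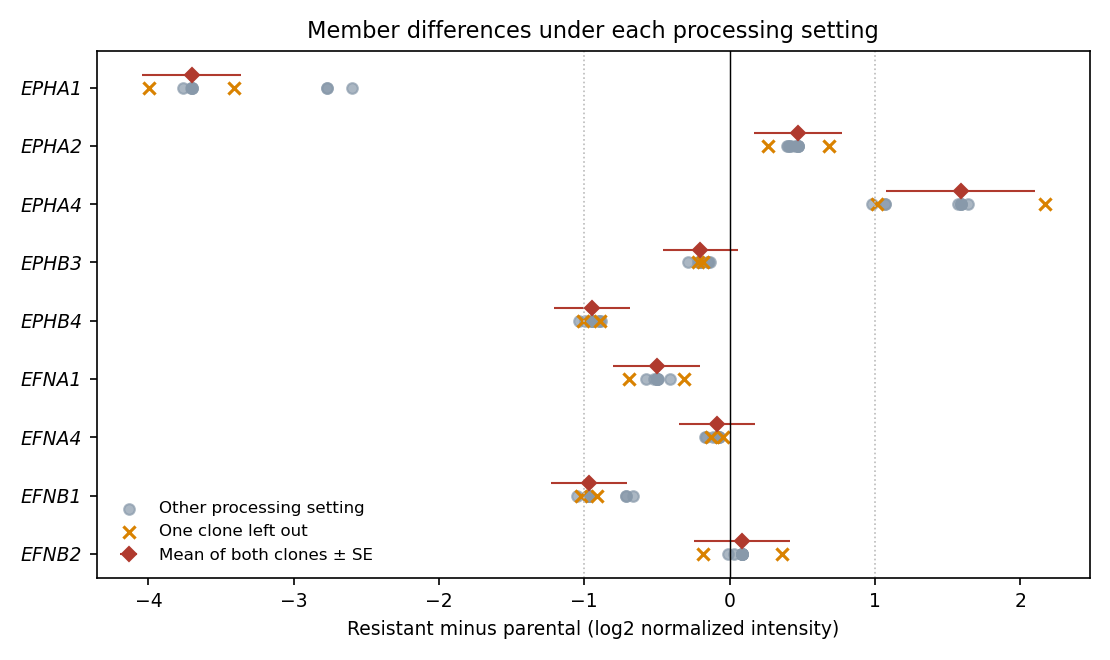
Mean log2 difference of the resistant clones from parental cells for each member, with its standard error from limma (red diamonds), under the other processing settings (grey circles) and with 1 clone left out (orange crosses). EPHA1 lies between -3.99 and -2.60, EPHA4 stays above 0, and EFNB2 lies on both sides of 0.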

How the data were processed

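Biotin-labelled cRNA was made from total RNA, per the labels' protocols, and the series' design text names the Illumina HumanHT-12 v3 BeadChip. Before normalization, the deposited values are a linear intensity for 48803 probes on 3 arrays, without detection p-values, and a second deposited table holds the authors' processed intensity. The sources used here do not give how either was computed. With the authors' processed intensity 589 genes were called, as many as with quantile normalization without background correction. As settings these are nearly the same. Background was corrected with normexp (offset 16), followed by log2 and quantile normalization. A probe exceeded background where its signal passed a one-sided p under 0.01 from a normal fit to each array's dim probes. Probes were named from GEO's platform annotation, updated by Entrez ID through RefSeq (GRCh38.p14): 28098 had 1 gene, 13 several and 20692 none listed. Named probes above background on at least 1 array entered, and each gene took its brightest, which left 11914 genes. Where a gene was below background throughout a group, the fold is a bound, against the lowest normalized signal above background on each array, and the lowest such bound over 6 ways of background correction and scaling was taken.

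The difference between resistant and parental arrays was tested with limma 3.58.1 in R 4.3.3, with Benjamini-Hochberg adjustment over all 11914 genes and a threshold of 0.05. The fit has 1 residual degree of freedom, from the difference between the 2 clones, beside 4.08 prior ones drawn from all tested genes. Standard errors and p-values thus combine a gene's own spread between the clones with that of all tested genes, and the prior has the larger weight. They hold no spread between parental cultures, and the labels do not say that the clones arose independently. The script was tested on simulated data. All members, other family genes above background and, from each signalling list, up to 4 genes that differed by 2-fold or more in both clones and the brightest under 2-fold were named, with the 3 genes nearest to the leading member. LYN, neighbouring genes and promoter letters were chosen after their values were seen. Members and lists were chosen with earlier results of these data known.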

Additional observations from a re-analysis of the deposited data

How the results depend on the processing

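EPHA1 was called lower under each of the 8 alternative settings in which it was tested, with log2 differences from -3.76 to -2.60 and limma adjusted p from 0.00280 to 0.0137. These settings are not independent checks. The difference stayed at -3.70 with no dim filter, detection p under 0.05 and the mean of probes, which leave its only probe unchanged. It was -2.77 both without background correction and with the authors' processed values. The clone values behind each p-value are background signal. With probes above background on all 3 arrays EPHA1 and EPHA4 were not tested, so that 0 members were called in place of 1 and 0 were 2-fold off in both clones in place of 2, and 282 genes were called in place of 685 (534 to 858 in the other settings). The 2-fold count was 1 with offset 50, with no background correction and with the authors' processed values. In those settings EPHA4 was below 2-fold in clone 1, and 0 members were 2-fold apart between the clones in place of 1, as was also so with probes above background on all 3 arrays. Over all settings the mean difference of EPHA4 ran from 0.98 to 1.64, and its adjusted p from 0.147 to 0.263. EFNB1 and EPHB4 were not called in any setting, with adjusted p of at least 0.0932 and 0.0990. With 1 clone left out there is no test, and 3 members were 2-fold off in the single remaining clone. Beside EPHA1 and EPHA4 these included EPHB4 in clone 2 and EFNB1 in clone 1. With median scaling 3 members, EPHA1, EPHA4 and EFNB1, were 2-fold off in both clones, which is a stricter count. CHN1 passed the test with no filter on dim probes (1.99, adjusted p = 0.0421).

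Some differences near 0 changed sign. EFNB2 was at -0.012 with median scaling, and from -0.18 to 0.36 with 1 clone left out. EPHA10 was at 0.0012 with offset 50, 0.00095 without background correction, 0.0013 with cyclic loess and 0.00079 with the authors' processed values, and from -0.15 to 0.15 with 1 clone left out. SDCBP ran from -0.11 to 0.067 with 1 clone left out. Median scaling moved the median of all genes to -0.065. No paired analysis was possible because there is 1 parental array. Signals of EPHB3, EFNB1 and EPHA4 lie near background, which limits what these arrays can show of them.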
